A study of Homo sapiens with 3 samples.

Results

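The RAB GTPase genes on the array were taken as all genes whose symbol in the platform annotation is RAB, a number and at most 1 letter, read on probe sets with 1 gene symbol. This gave 57 of the 19775 named genes and 138 of the 41091 probe sets with 1 symbol. A further 11 probe sets list a RAB gene among several symbols and were not used, so that RAB34, RAB6C and RAB6D have no value here.

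RAB GTPases are small membrane-bound switches that give each compartment of the cell its identity. An exchange factor loads a RAB with GTP on its membrane, the loaded form recruits effectors such as tethers and motors, a GTPase-activating protein ends the signal, and the dissociation inhibitor GDI carries the prenylated protein back through the cytosol. Different RABs serve different steps, from ER export to secretion, endocytosis, recycling and the lysosome, and in epithelial tumour cells several are studied for their part in receptor recycling and exosome release.

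Expression was measured on Affymetrix arrays in 3 stable PANC-1 lines, cells grown from a carcinoma of the human pancreatic duct, with 1 array per line. The lines expressed wild-type JMJD3, a mutant JMJD3 whose change the labels do not specify, or carried the blank MSCV retroviral vector (control), with no further treatment. JMJD3, the product of KDM6B, is a demethylase that takes a repressive methyl mark off histone H3. The labels do not say whether a line is a clone or a pool. Without replicates no difference has an error or a test. Each array reads RNA pooled over a culture, so more cells expressing a gene and more RNA per cell cannot be told apart.

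Signals are on a log2 scale, and the pooled median of all arrays, log2 5.48, served as a floor under which a signal counts as not measured. Median signals were 5.48 with wild-type JMJD3, 5.49 with mutant JMJD3 and 5.50 in control. Of the ductal and simple epithelial markers, 6 of 7 were over the floor in every array, while CDH1, the epithelial cadherin, read 4.62 in all of them. Their summed log2 signals were 65.23 with wild-type JMJD3, 62.41 with mutant JMJD3 and 61.91 in control, a sum over members that differed in both directions. KRT19, a ductal keratin, was high in both JMJD3 arrays (8.0 wild-type, 7.73 mutant and 5.55 control), whereas with mutant JMJD3 KRT7, KRT8, KRT18 and MUC1 lay below control, at differences of -1.09 to -0.42 on the log2 scale. EPCAM went the other way and was highest with mutant (5.83 wild-type, 7.07 mutant and 6.17 control). With wild-type JMJD3, KRT7 lay 1.14 above control, while EPCAM (-0.34) and MUC1 (-0.21) lay below it. All 3 mesenchymal markers were over it, with summed log2 signals of 29.92 with wild-type JMJD3, 31.53 with mutant JMJD3 and 30.13 in control. VIM differed by at most 0.07, while ZEB1 (8.68 wild-type, 9.84 mutant and 9.36 control) and CDH2 (7.90 wild-type, 8.41 mutant and 7.50 control) were highest with mutant. The part of these markers in the RAB values was not tested. None of the acinar, islet or leukocyte markers with a value (2 of 3, 3 of 3 and 2 of 3 listed) was over the floor. Of 4 fibroblast markers COL1A1 and DCN were over it, and of 3 endothelial markers PECAM1 was. KDM6B probe set 1556067_a_at read 6.73 with wild-type JMJD3, 6.45 with mutant JMJD3 and 5.53 in control, the last close to the floor. Probe set 1556066_at read 6.75 with wild-type, 6.51 with mutant and 6.02 in control. The brightest one, 41387_r_at, instead read 7.66 with wild-type, 7.65 with mutant and 7.60 in control, and 41386_i_at read 6.99 with wild-type, 6.88 with mutant and 6.99 in control. Of all probe sets 21.0% had the same value in all 3 arrays, and 12 of the 138 RAB probe sets did, which is 8.70%. Among the 97 RAB probe sets over the floor in at least 1 array 4 did, which is 4.12%, and the like share of all probe sets was not counted. What made values identical between arrays was not tested.

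At its brightest probe set, which stands for the gene below, 43 RAB genes were over the floor in all arrays, RAB11B was over it only with wild-type JMJD3, and 13 were at or under it in every array. The 13 were RAB3B, RAB3C and RAB37 of secretion, RAB33A and RAB36 of the Golgi, RAB7B, RAB9B, RAB38, RAB39A and RAB39B of lysosomes and related organelles, the epithelial recycling gene RAB25, RAB40A, and RAB6A, whose other probe sets carry several symbols. Over the 138 probe sets, 97 were over the floor in at least 1 array. In 49 probe sets, and in 15 of the 57 brightest ones, the identifier ends in _s_at or _x_at, which marks probes shared with other transcripts.

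**Figure D1:**
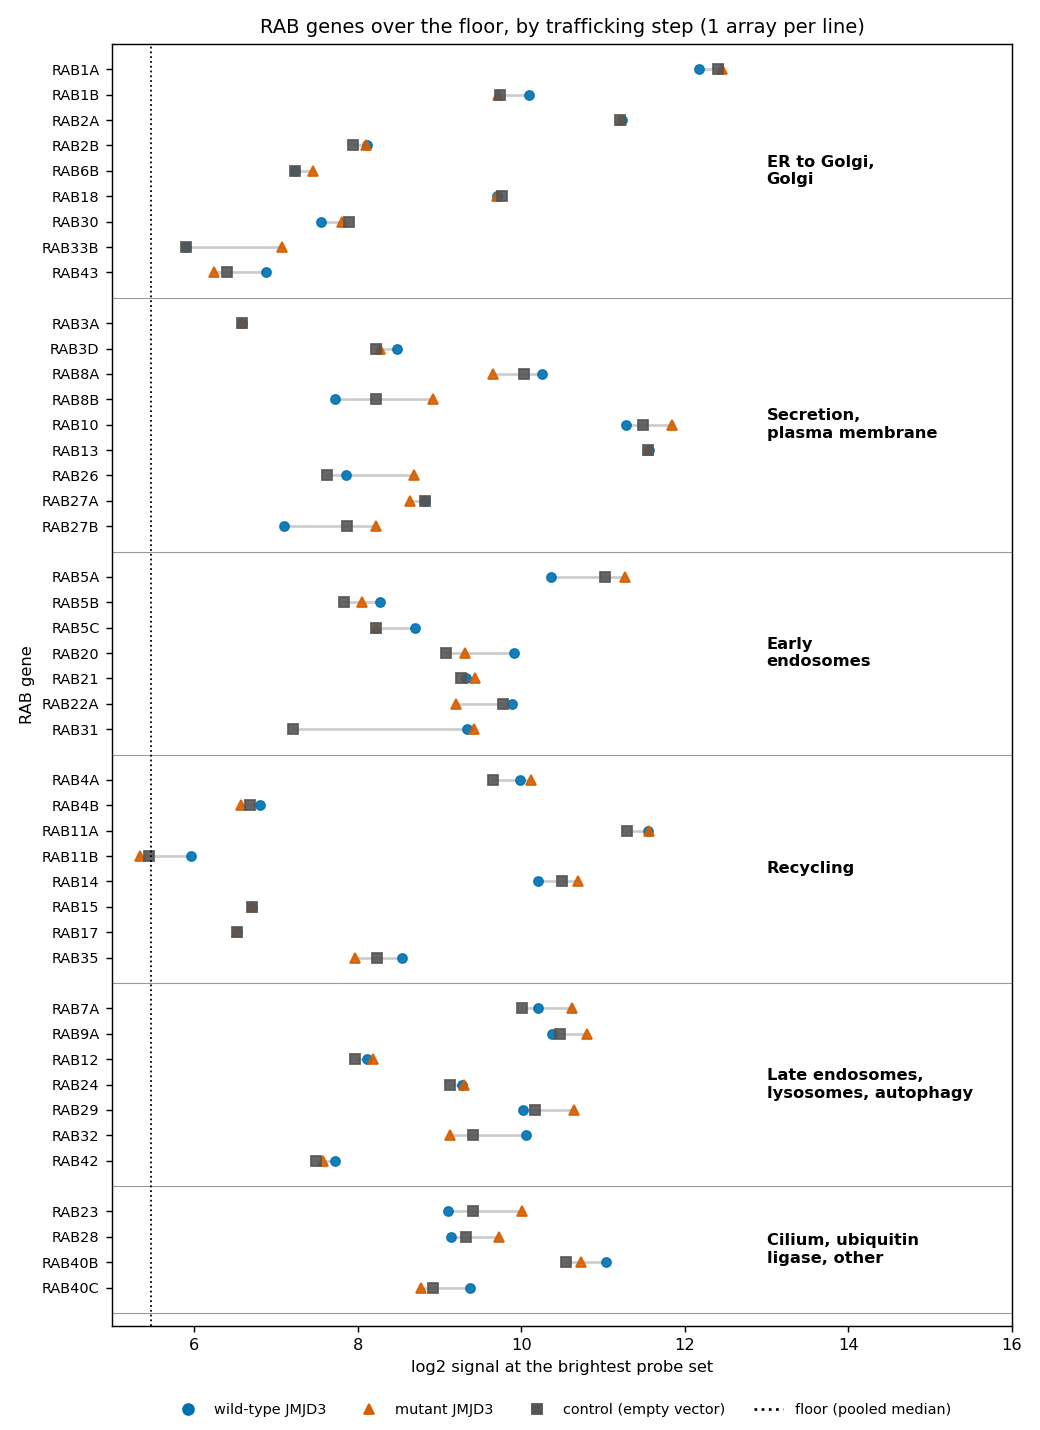
Log2 signal (x axis) of the 44 RAB genes over the floor in at least 1 array, each at its brightest probe set, grouped by trafficking step, with 1 symbol per array and the floor of 5.48 as a dotted line. RAB31 has the widest gap (9.34 wild-type, 9.42 mutant and 7.21 control), and levels of different genes, read by different probe sets, are not comparable.

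Against control, RAB31 was the only member 2-fold or more higher with wild-type JMJD3, 1 of 44 measured, where 0.953% of all 12697 measured genes were that much higher. None of the members was 2-fold lower, against 1.31% of all genes. The members' median log2 difference was 0.115, beside 0.05 over all measured genes, and 26 of the 44 lay above 0, where 54.4% of all genes did. With mutant JMJD3, 3 of 43 measured members were 2-fold or more higher than control (RAB31, RAB33B and RAB26), which is 6.98% of them, where 2.98% of all 12707 measured genes were. Again none was 2-fold lower, against 0.535% of all genes. The members' median was 0.17, beside 0.00 over all genes, and 27 of the 43 lay above 0, where 45.9% of all genes did. Both comparisons share the control array. With wild-type set against mutant JMJD3, none of 44 measured members was 2-fold higher, where 2.61% of 12829 genes were, and 3 were 2-fold lower (RAB8B, RAB33B and RAB27B), 6.82% of the members, where 6.20% of all genes were. The median was 0.00 in the members and over all genes, and 19 of the 44 members lay above 0, where 49.7% of all genes did. In the order of these 3 comparisons 12, 11 and 21 members lay below 0, and 6, 5 and 4 were at exactly 0. Ties at 0 were not counted over all genes, and their part in the shares above 0 was not tested. For wild-type JMJD3 over control the members' median was 0.015 without shared probe sets, beside 0.01 over all genes. With the median signal over a gene's probe sets it was 0.03, below the 0.055 of all genes, and for mutant JMJD3 over control it was 0.0875, beside 0.00.

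**Figure D2:**
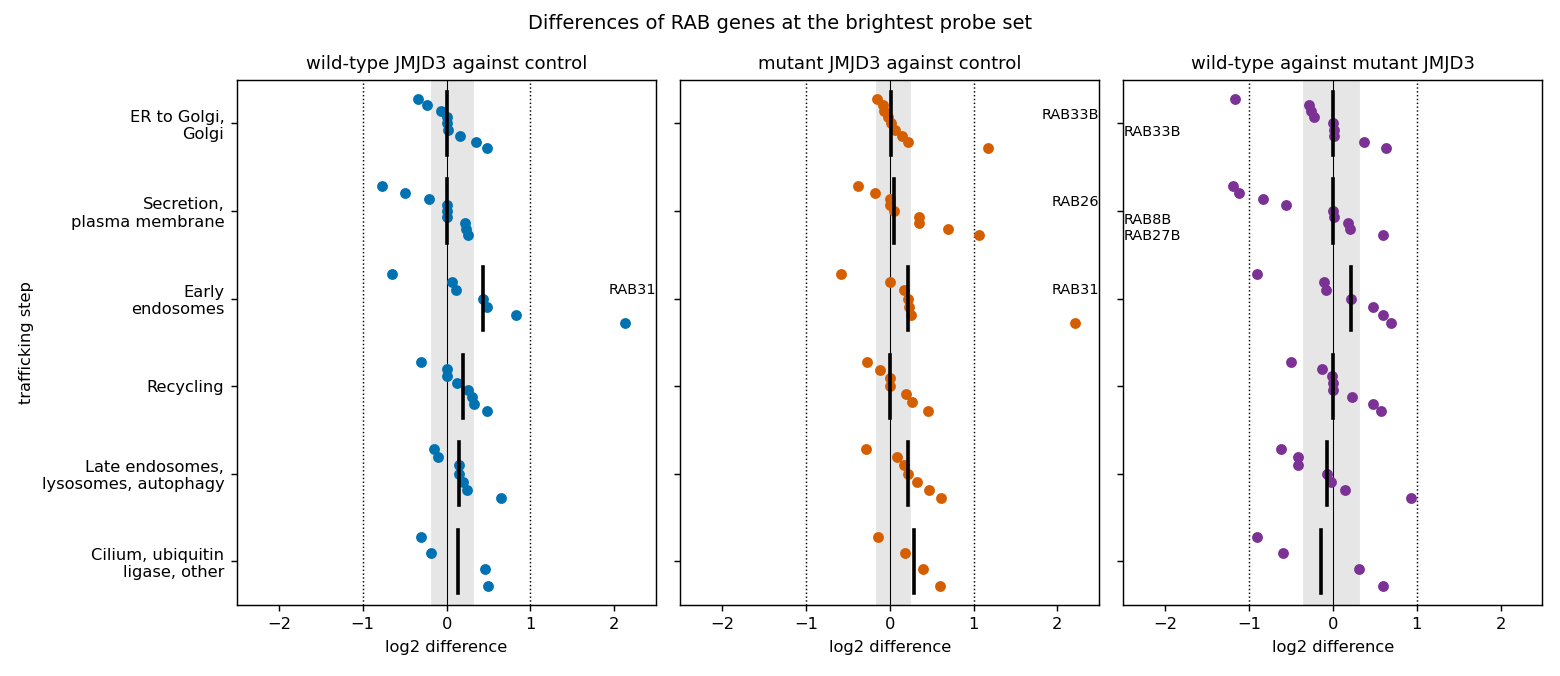
Log2 differences (x axis) of the measured RAB genes by trafficking step in the 3 comparisons, with 1 point per gene, a black bar at each step's median, the grey band spanning the 25th to 75th percentile of all measured genes, dotted lines at 2-fold, and gene names at the panel edges for members at 2-fold or more. RAB31 lies at 2.13 and 2.21 in the comparisons with control, and most other members lie within 2-fold.

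The 7 genes of endocytosis and early endosomes were all over the floor. RAB31, a RAB22 subfamily member that serves transport between the trans-Golgi network and endosomes, read 9.34 with wild-type JMJD3, 9.42 with mutant JMJD3 and 7.21 in control at probe set 217764_s_at. Probe set 217762_s_at read 8.51 with wild-type JMJD3, 8.70 with mutant JMJD3 and 6.34 in control, and 217763_s_at read 8.58 with wild-type, 8.42 with mutant and 6.38 in control. Both JMJD3 arrays were thus high and control low at each of its probe sets. Wild-type JMJD3 exceeded control 4.38-fold, 4.50-fold and 4.59-fold over these probe sets, and mutant JMJD3 exceeded it 4.63-fold, 5.13-fold and 4.11-fold. Between the JMJD3 arrays the log2 differences ran from -0.19 to 0.16. All 3 carry shared probes, so that without shared probe sets RAB31 has no value.

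RAB22A, the closest relative of RAB31 and a regulator of early and recycling endosomes, did not follow it. Its brightest probe set read 9.89 with wild-type JMJD3, 9.20 with mutant JMJD3 and 9.78 in control, and probe set 213405_at read 7.66 with wild-type, 8.63 with mutant and 8.14 in control. One probe set was lowest with mutant JMJD3 and the other highest there, a gap of 1.66 on the log2 scale in the wild-type minus mutant difference. The 250 bases before the annotated start of each gene are shown because the differences of these genes from control lay furthest apart among the relatives. They come from RefSeq on build GRCh38.p14, at chr18:9708051-9708300 (plus strand) for RAB31 and chr20:58309465-58309714 (plus strand) for RAB22A. Capitals mark the GC box GGGCGG or its reverse complement CCGCCC, and the E-box CACGTG.
RAB31: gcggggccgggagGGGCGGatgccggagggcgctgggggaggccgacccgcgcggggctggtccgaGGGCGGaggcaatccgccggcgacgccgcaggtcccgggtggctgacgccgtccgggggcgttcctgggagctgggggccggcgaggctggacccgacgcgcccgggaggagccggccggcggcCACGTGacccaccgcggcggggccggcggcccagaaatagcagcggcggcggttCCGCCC
RAB22A: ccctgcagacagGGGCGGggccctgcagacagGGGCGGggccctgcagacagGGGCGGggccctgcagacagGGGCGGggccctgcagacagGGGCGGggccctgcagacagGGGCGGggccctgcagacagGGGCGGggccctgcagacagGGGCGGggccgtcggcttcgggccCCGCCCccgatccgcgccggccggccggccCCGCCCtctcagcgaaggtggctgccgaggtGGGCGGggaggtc
The RAB31 window held 40 CpG dinucleotides, a count reached by 2.07% of 27305 genes, 3 GC boxes and 1 CACGTG. The RAB22A window held 22 CpG dinucleotides, 11 GC boxes, most of them in a repeated unit, and no CACGTG. Over all 27305 genes, 42.2% of such windows held a GC box and 6.46% held CACGTG. These letters are a description and not evidence of binding.

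RAB5 genes, whose proteins drive fusion of early endosomes, were split. RAB5A read 10.37 with wild-type JMJD3, 11.27 with mutant JMJD3 and 11.02 in control, so the wild-type array was lowest, 1.87-fold below mutant and 1.57-fold below control. A second RAB5A probe set gave 1.43-fold and 1.61-fold in the same direction. RAB5B read 8.28 with wild-type, 8.06 with mutant and 7.84 in control, and RAB5C read 8.70 with wild-type, 8.22 with mutant and 8.22 in control, so that wild-type was highest for both. The other RAB5C probe set also had wild-type highest (8.50 wild-type, 7.85 mutant and 7.92 control). RAB20, found on endosomes and phagosomes, read 9.91 with wild-type JMJD3, 9.31 with mutant JMJD3 and 9.08 in control, 1.78-fold above control with wild-type JMJD3. RAB21, which binds integrin tails on endosomes, differed by at most 0.17 at its brightest probe set (9.32 wild-type, 9.43 mutant and 9.26 control), while 239329_at and 226268_at were lower with wild-type than mutant JMJD3 by 0.82 and 0.93 on the log2 scale. The median over the 7 genes was 0.44 for wild-type JMJD3 over control, 0.22 for mutant JMJD3 over control and 0.22 for wild-type over mutant, where all measured genes had 0.05, 0.00 and 0.00. These medians rest on the brightest probe sets and include RAB31 and RAB5C, which have only shared probe sets. With wild-type JMJD3, RAB22A at 213405_at (-0.48) and RAB21 at 226268_at (-0.41) lay below control, unlike their brightest probe sets.

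Of 12 genes of secretion and delivery to the plasma membrane, 9 were measured. At any measured probe set 3 of these 9 were 2-fold or more lower with wild-type than mutant JMJD3, where 9.66% of all genes were. RAB27A and RAB27B dock secretory granules and exosome-carrying endosomes at the plasma membrane. RAB27B read 7.10 with wild-type JMJD3, 8.22 with mutant JMJD3 and 7.87 in control. The wild-type array was lowest, 2.17-fold below mutant and 1.71-fold below control, and the other 2 probe sets lay under the floor. With a constant offset instead of a floor the wild-type minus mutant difference of RAB27B was -0.91, under 2-fold.

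The 5 probe sets of RAB27A formed 2 kinds. The brightest, 210951_x_at, read 8.82 with wild-type JMJD3, 8.64 with mutant JMJD3 and 8.82 in control, and 209514_s_at read 8.71 with wild-type, 8.41 with mutant and 8.78 in control, so mutant was slightly lowest. Probe set 209515_s_at instead read 6.96 with wild-type, 8.88 with mutant and 7.85 in control. Probe sets 222294_s_at and 235766_x_at had the same pattern, the first of which read 6.67 with wild-type, 8.79 with mutant and 7.20 in control and the other of which read 6.76 with wild-type, 8.75 with mutant and 7.30 in control. At these 3 the mutant array was highest and the wild-type array lowest. Wild-type was 3.78-fold, 4.35-fold and 3.97-fold below mutant there, and mutant was 2.04-fold, 3.01-fold and 2.73-fold above control. All 5 carry shared probes, and the sources used here do not say where each lies on the transcript. The difference for wild-type against mutant JMJD3 was 0.18 at the brightest probe set and -1.79 with the median signal over its probe sets, so a value for RAB27A as a whole depends on the probe set. The spread of 2.42 between its probe sets was the widest among the members in that comparison.

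Windows of 250 bases before the outermost annotated start follow for the RAB27 genes, on the minus strand at chr15:55319124-55319373 for RAB27A and the plus strand at chr18:54717607-54717856 for RAB27B (RefSeq, GRCh38.p14). RAB27A has 5 annotated starts and RAB27B has 2. Capitals mark GC boxes as above.
RAB27A: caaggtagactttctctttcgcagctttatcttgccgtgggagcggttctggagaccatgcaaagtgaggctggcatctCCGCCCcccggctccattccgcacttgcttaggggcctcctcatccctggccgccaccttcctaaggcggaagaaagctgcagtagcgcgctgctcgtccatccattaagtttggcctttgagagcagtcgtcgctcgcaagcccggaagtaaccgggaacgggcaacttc
RAB27B: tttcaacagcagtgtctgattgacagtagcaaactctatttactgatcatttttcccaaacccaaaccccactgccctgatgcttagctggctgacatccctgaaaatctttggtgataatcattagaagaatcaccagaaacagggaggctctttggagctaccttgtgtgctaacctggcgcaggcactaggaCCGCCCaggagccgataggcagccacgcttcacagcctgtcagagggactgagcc
RAB27A held 17 CpG dinucleotides and 1 GC box, and RAB27B held 4 and 1. Neither window held CACGTG.

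RAB8B and RAB8A, which carry cargo from the Golgi and recycling endosomes to the plasma membrane and cilium, differed in opposite directions. RAB8B read 7.73 with wild-type JMJD3, 8.92 with mutant JMJD3 and 8.23 in control, 2.28-fold lower with wild-type than mutant. RAB8A read 10.25 with wild-type JMJD3, 9.65 with mutant JMJD3 and 10.03 in control, 1.52-fold higher with wild-type than mutant. A dimmer RAB8B probe set, 219210_s_at, read 5.92 with wild-type, 5.77 with mutant and 6.15 in control, with mutant lowest, and the median over the probe sets turned the RAB8B difference of -1.19 to 0.15. RAB26, a RAB of regulated secretion, read 7.86 with wild-type JMJD3, 8.69 with mutant JMJD3 and 7.63 in control, and 50965_at read 7.57 with wild-type, 8.32 with mutant and 7.24 in control. The mutant array was highest at both, 2.08-fold and 2.11-fold above control, and the first was 0.91 on the log2 scale with a constant offset instead of a floor. RAB10, which moves GLUT4 vesicles and basolateral cargo, was highest with mutant at one probe set (11.28 wild-type, 11.84 mutant and 11.49 control) and lowest there at the other (10.69 wild-type, 10.24 mutant and 10.41 control). RAB13, of epithelial junctions, differed by at most 0.01. RAB3D, of exocrine secretory granules, read 8.48 with wild-type JMJD3, 8.28 with mutant JMJD3 and 8.23 in control, and the neuronal RAB3A read 6.59 in all arrays.

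**Figure D3:**
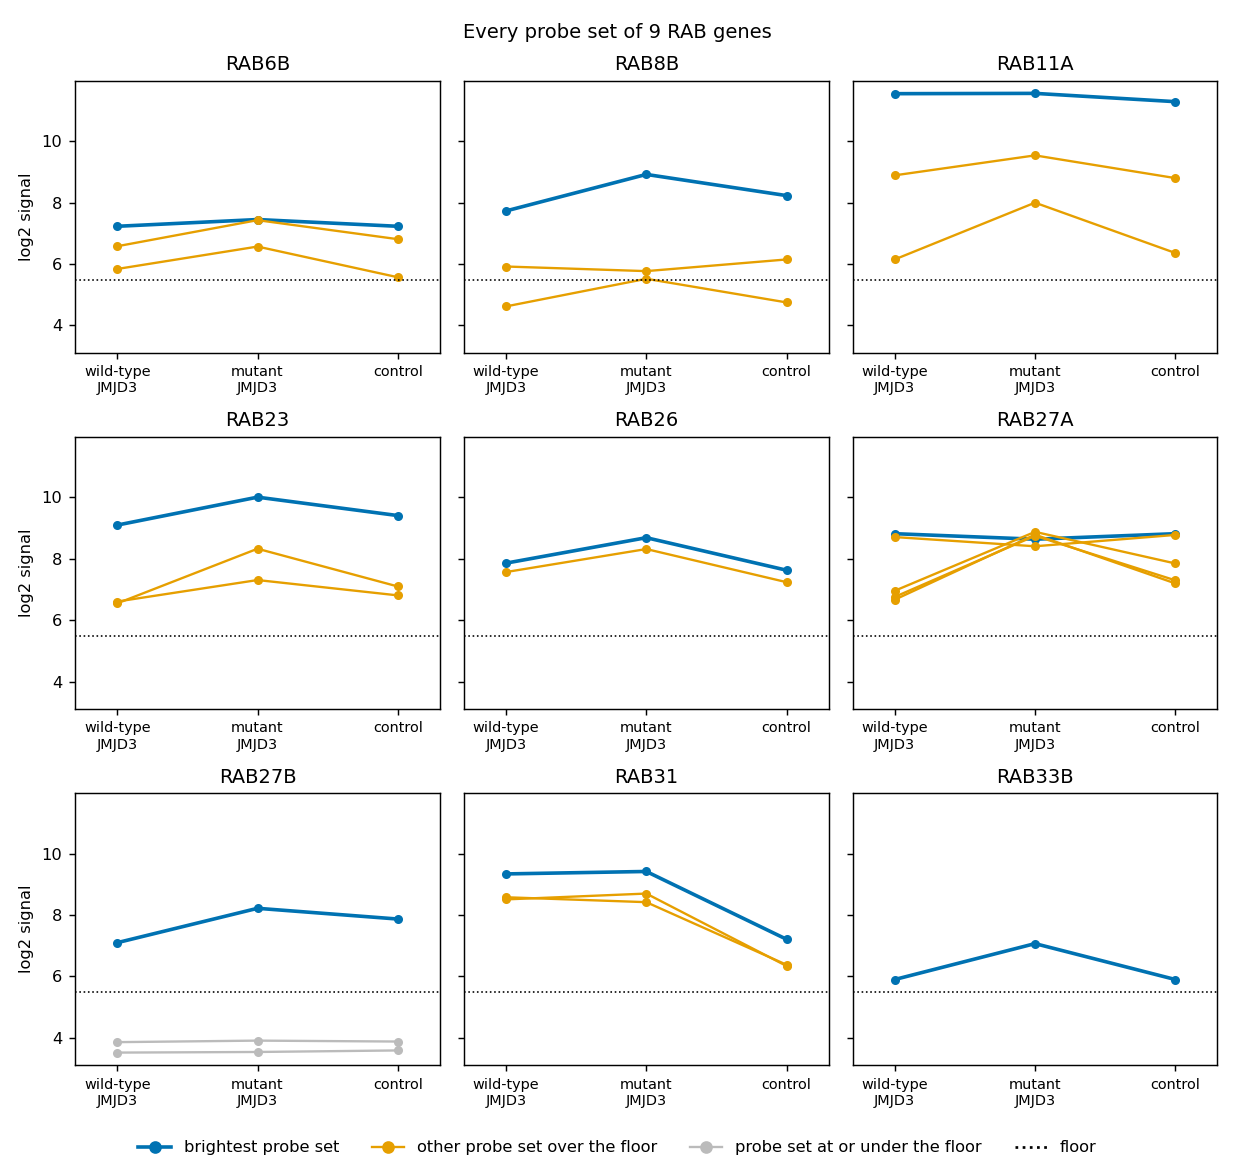
Log2 signal (y axis) in the wild-type JMJD3, mutant JMJD3 and control arrays (x axis) at every probe set of the 9 RAB genes with a measured probe set at 2-fold or more in any comparison, with 1 line per probe set and the floor of 5.48 dotted. The lines of RAB31 are all lowest in control, while those of RAB27A form 2 kinds, with 3 of 5 peaking in the mutant array.

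Among 12 genes of ER export and the Golgi, 9 were measured and their medians were 0.00, 0.01 and 0.00 for wild-type JMJD3 over control, mutant JMJD3 over control and wild-type over mutant. RAB33B, a Golgi RAB that also binds the autophagy protein ATG16L1, stood apart. Its only probe set read 5.90 with wild-type JMJD3, 7.07 with mutant JMJD3 and 5.90 in control, so mutant was 2.25-fold above each. The lower signals lay close to the floor, and with the floor at the 60th percentile the difference was 0.90, under 2-fold. RAB6B, a Golgi RAB abundant in brain, was within 0.22 at its brightest probe set (7.23 wild-type, 7.45 mutant and 7.23 control), but 210127_at read 5.84 with wild-type JMJD3, 6.57 with mutant JMJD3 and 5.57 in control, 2.0-fold above control with mutant, and 221792_at was also highest with mutant (6.58 wild-type, 7.43 mutant and 6.81 control).

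RAB1A and RAB1B, which govern ER-to-Golgi transport, differed little and in opposite directions. RAB1A read 12.17 with wild-type JMJD3, 12.46 with mutant JMJD3 and 12.40 in control, with wild-type lowest at all 3 measured probe sets. RAB1B read 10.09 with wild-type, 9.72 with mutant and 9.74 in control, with wild-type highest. RAB2A, which acts on the ER-to-Golgi intermediate compartment, stayed within 0.02 at its brightest probe set (11.23 wild-type, 11.22 mutant and 11.21 control) and was higher with wild-type than mutant JMJD3 at 4 of 5 measured probe sets. RAB2B read 8.11 with wild-type JMJD3, 8.10 with mutant JMJD3 and 7.95 in control. RAB43, of the Golgi, had wild-type highest (6.88 wild-type, 6.25 mutant and 6.40 control). RAB30, also of the Golgi, had wild-type lowest at its brightest probe set (7.55 wild-type, 7.81 mutant and 7.89 control) and highest at 206530_at (6.34 wild-type, 5.55 mutant and 5.79 control). RAB18, linked to ER and lipid droplets, was within 0.07 at its brightest probe set (9.70 wild-type, 9.70 mutant and 9.77 control), while 223336_s_at read 9.13 with wild-type, 9.93 with mutant and 9.45 in control.

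Of 9 recycling genes, 8 were measured and none reached 2-fold at its brightest probe set. RAB11A, the main RAB of recycling endosomes, read 11.55 with wild-type JMJD3, 11.56 with mutant JMJD3 and 11.29 in control at that probe set. Probe set 200864_s_at read 8.89 with wild-type, 9.54 with mutant and 8.80 in control, and 234998_at read 6.15 with wild-type, 8.0 with mutant and 6.36 in control, so mutant was highest at both dimmer ones. At 234998_at mutant was 3.12-fold above control and wild-type 3.60-fold below mutant. Without shared probe sets that one stands for RAB11A. RAB11B read 5.96 with wild-type JMJD3 and was under the floor in the others (5.34 with mutant JMJD3 and 5.45 in control). RAB35, of fast recycling and cytokinesis, had wild-type highest and mutant lowest at both measured probe sets. The brightest read 8.54 with wild-type, 7.97 with mutant and 8.24 in control, and 225620_at read 8.40 with wild-type, 7.41 with mutant and 7.89 in control, 1.99-fold higher with wild-type than mutant. RAB4A, of fast recycling from early endosomes, had control lowest at all 3 measured probe sets, where the brightest read 9.99 with wild-type, 10.12 with mutant and 9.66 in control. RAB14, which acts between Golgi and endosomes, had wild-type lowest (10.20 wild-type, 10.70 mutant and 10.50 control). RAB4B read 6.81 with wild-type JMJD3, 6.58 with mutant JMJD3 and 6.69 in control, and the epithelial RAB17 (6.52) and RAB15 (6.71) had the same value in every array.

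Of 12 genes of late endosomes, lysosomes, lysosome-related organelles and autophagy, 7 were measured and all stayed under 2-fold. RAB32, of melanosomes and mitochondria, read 10.06 with wild-type JMJD3, 9.13 with mutant JMJD3 and 9.41 in control, 1.91-fold higher with wild-type than mutant, and its other probe set went the same way by 1.31-fold. RAB29, which recruits the kinase LRRK2 to membranes, read 10.02 with wild-type JMJD3, 10.64 with mutant JMJD3 and 10.17 in control, and 218700_s_at read 7.17 with wild-type, 8.14 with mutant and 7.68 in control, so mutant was highest and wild-type lowest at both. The other measured RAB29 probe set, 243777_at, had wild-type highest (6.19 wild-type, 6.07 mutant and 6.07 control). RAB7A, the central RAB of late endosomes and lysosomes, read 10.21 with wild-type, 10.62 with mutant and 10.01 in control at its brightest probe set, and one nearly as bright read 10.30 with wild-type, 10.21 with mutant and 10.21 in control. Mutant was instead lowest at the dimmer 223760_s_at (6.88 wild-type, 6.37 mutant and 6.74 control), and 227602_at read 5.54 in all arrays. RAB9A, of transport from late endosomes to the Golgi, read 10.38 with wild-type JMJD3, 10.80 with mutant JMJD3 and 10.48 in control. RAB12, RAB24 and RAB42 differed by at most 0.24 at their brightest probe sets.

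In the remaining group of cilium and ubiquitin ligase RABs, 4 of 5 genes were measured. RAB23, which in mouse restrains Hedgehog signalling, was highest with mutant and lowest with wild-type JMJD3 at all 3 probe sets. It read 9.10 with wild-type JMJD3, 10.01 with mutant JMJD3 and 9.41 in control at the brightest. Probe set 229504_at read 6.55 with wild-type, 8.33 with mutant and 7.10 in control, where mutant was 2.35-fold above control and wild-type 3.43-fold below mutant. RAB28, a ciliary RAB, had the same order at its brightest probe set (9.14 wild-type, 9.73 mutant and 9.33 control). RAB40B and RAB40C, which carry a SOCS box that binds a cullin ubiquitin ligase, had wild-type highest. RAB40B read 11.04 with wild-type, 10.73 with mutant and 10.55 in control, and RAB40C read 9.38 with wild-type, 8.78 with mutant and 8.92 in control.

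Counting a gene by any of its measured probe sets gave more members. With mutant JMJD3, 7 of 43 were 2-fold or more above control (RAB6B, RAB11A, RAB23, RAB26, RAB27A, RAB31 and RAB33B), 16.3% of them, where 4.76% of all genes were. In wild-type against mutant JMJD3, 6 of 44 were 2-fold or more lower (RAB8B, RAB11A, RAB23, RAB27A, RAB27B and RAB33B), 13.6%, where 9.66% of all genes were. Members had 2.20 probe sets over the floor per gene, against 1.83 over all measured genes, members included. The part of probe set number in these counts was not tested. In wild-type JMJD3 against control only RAB31 passed by this count, 2.27%, where 1.13% of all genes were higher and 2.65% lower. Probe sets of one gene could disagree. Among the 28 members with several measured probe sets in wild-type against mutant JMJD3, 13 had differences of both signs, where 26.0% of 6149 such genes did, and 8 spanned 2-fold or more between probe sets, where 16.3% did. In wild-type JMJD3 against control, 9 of 27 had both signs, where 21.9% of such genes did, and none spanned 2-fold, where 3.94% did. In mutant JMJD3 against control, 11 of 28 had both signs, where 34.0% did, and 4 spanned 2-fold, where 8.42% did. Where probe sets of a gene disagree, the difference cannot be assigned to the gene as a whole.

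Close relatives of the same subfamily are set side by side because they share much of their function. Wild-type minus mutant differences had opposite signs within the RAB1, RAB4, RAB5, RAB8, RAB11, RAB22 and RAB27 groups of relatives at the brightest probe sets. They had the same sign within RAB2 and RAB40. Over all genes 49.7% lay above 0, so opposite signs are frequent between unrelated genes as well. The groups were picked by hand, and the group of RAB5 holds 3 genes, which gives more pairs that can differ. RAB3A (0.00) and RAB3D (0.20), also measured, were not among the groups. Some signs lay near 0 or turned at another probe set. RAB31 lay at -0.08 (0.16 at 217763_s_at) and RAB22A at 0.69 (-0.97 at 213405_at). RAB4A lay at -0.13 (0.13 at 203582_s_at), RAB2A at 0.01 (-0.14 at 208732_at) and RAB8B at 0.15 at 219210_s_at. RAB5A lay at -0.90, RAB5B at 0.22 and RAB5C at 0.48. RAB8B lay at -1.19 and RAB8A at 0.60. RAB27B lay at -1.12 and RAB27A at 0.18, though at 3 of its 5 probe sets RAB27A lay between -2.12 and -1.92. RAB11A lay at -0.01 and RAB11B, against the floor, at 0.48.

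**Figure D4:**
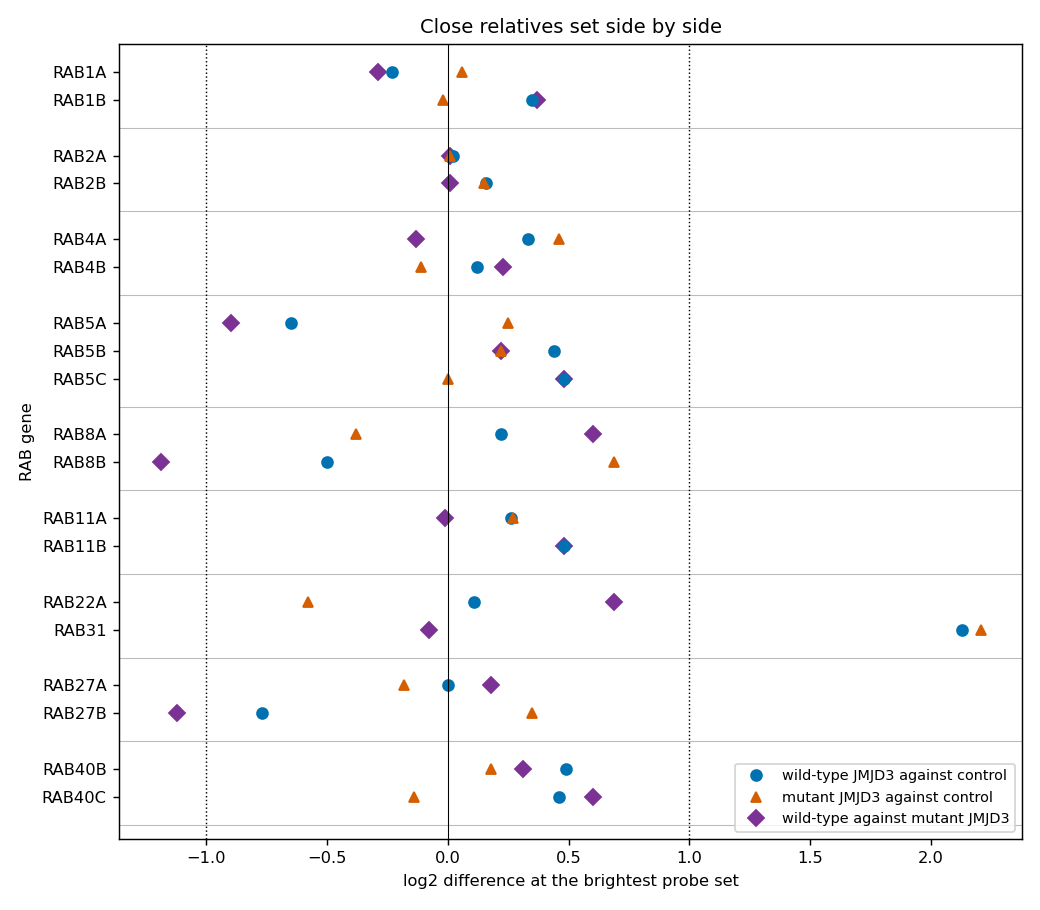
Log2 differences (x axis) at the brightest probe set for 19 RAB genes in 9 groups of close relatives (y axis), with a circle for wild-type JMJD3 over control, a triangle for mutant JMJD3 over control and a diamond for wild-type over mutant, dotted lines at 2-fold, and no triangle for RAB11B, whose mutant and control arrays were under the floor. RAB5A and RAB8B lie on the other side of 0 from their relatives in wild-type against mutant.

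The start windows of RAB8A and RAB8B are shown as the relatives furthest apart on either side of 0 among those read by probe sets without shared probes, at chr19:16111639-16111888 and chr15:63189356-63189605, both on the plus strand (RefSeq, GRCh38.p14), with GC boxes in capitals.
RAB8A: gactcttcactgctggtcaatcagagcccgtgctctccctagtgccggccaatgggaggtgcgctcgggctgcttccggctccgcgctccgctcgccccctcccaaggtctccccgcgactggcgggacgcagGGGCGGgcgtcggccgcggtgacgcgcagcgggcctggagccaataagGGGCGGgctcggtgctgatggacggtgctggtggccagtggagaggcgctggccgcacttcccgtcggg
RAB8B: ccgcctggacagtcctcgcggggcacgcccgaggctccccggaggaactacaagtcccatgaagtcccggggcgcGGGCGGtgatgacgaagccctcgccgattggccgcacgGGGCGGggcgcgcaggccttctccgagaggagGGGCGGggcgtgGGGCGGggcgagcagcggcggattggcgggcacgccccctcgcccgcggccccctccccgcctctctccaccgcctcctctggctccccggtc
RAB8A held 28 CpG dinucleotides and 2 GC boxes, and RAB8B held 33 and 4. Windows were available for 45 of the 57 members. They held a median of 22.0 CpG dinucleotides (2 to 40), beside 10 over all 27305 genes, and 37 of 45 held a GC box, where 42.2% of all genes did. Among the 37 whose brightest probe set was over the floor in at least 1 array the median was 23.0 and 34 held a GC box, and among the 8 at or under the floor the median was 16.5 and 3 held one. The 8 include RAB6A (32 CpG dinucleotides and no GC box), whose other probe sets carry several symbols and were not used. The 27305 genes were not matched to the members by expression, nor by class of gene such as coding or non-coding.

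The genes that load, activate, switch off and read RABs are described here at their brightest probe sets, then at any probe set. Of 120 such genes in 4 lists, 115 were named on the array. Wild-type JMJD3 had 1 of 103 measured genes 2-fold or more above control, where 0.953% of all genes were, and none that much below, where 1.31% were. Mutant JMJD3 had 1 of 104 above control, where 2.98% of all genes were, and none below, where 0.535% were. The single gene was SYTL2 in both, an effector of RAB27 on secretory vesicles. Its probe set 232914_s_at read 7.43 with wild-type JMJD3, 6.95 with mutant JMJD3 and 5.16 in control. Both JMJD3 arrays were over the floor and control under it, at least 3.86-fold and at least 2.77-fold higher. The only other SYTL2 probe set over the floor, 225496_s_at, read 5.62 with wild-type, 5.64 with mutant and 5.51 in control, and the median over its probe sets gave 0.14 and 0.16 on the log2 scale. With the floor at the 60th percentile the mutant difference was 0.78.

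Dimmer probe sets of the regulators gave further differences. At any measured probe set 4 of 103 genes were 2-fold or more lower with wild-type JMJD3 than control, where 2.65% of all genes were. SBF2 at 233914_s_at lay at -1.64, DENND5B at 215058_at at -1.40, EHBP1 at 212650_at at -1.19 and DENND4C at 205684_s_at at -1.09 on the log2 scale. SBF2, DENND5B and DENND4C are on the list of exchange factors and EHBP1 on that of effectors. With mutant JMJD3, 2 of 104 were above control (SYTL2 and TBC1D15), where 4.76% of all genes were, and MYO5A, a myosin motor, was below it at 204527_at, where 1.05% were. In wild-type against mutant JMJD3, 10 of 103 were lower by this count, where 9.66% of all genes were.

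In wild-type against mutant JMJD3, 3 of 103 measured regulators and effectors were 2-fold or more higher and 6 lower, 2.91% and 5.83%, where 2.61% and 6.20% of all genes were. RABIF, a chaperone for RABs that lack bound nucleotide, read 8.97 with wild-type JMJD3, 7.72 with mutant JMJD3 and 8.41 in control, 2.38-fold higher with wild-type than mutant, but the difference was 0.00 without shared probe sets. MICALL1, a RAB8 and RAB35 effector on recycling tubules, read 9.31 with wild-type, 8.26 with mutant and 8.67 in control, and its other probe set read 8.82 with wild-type, 7.72 with mutant and 8.10 in control, so wild-type was highest and mutant lowest at both, by 2.07-fold and 1.10 on the log2 scale. RABEP2, a RAB4 and RAB5 effector, was 2.23-fold higher with wild-type than mutant and 0.52 on the log2 scale without shared probe sets. MICALL1 (0.95) and RABEP2 (0.96) were under 2-fold with a constant offset instead of a floor.

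The 6 lower with wild-type than mutant JMJD3 were exchange factors and GTPase-activating proteins. GAPVD1, an exchange factor for RAB5 and RAB31, read 9.85 with wild-type JMJD3, 10.94 with mutant JMJD3 and 10.74 in control, 2.13-fold lower with wild-type than mutant. All 4 of its probe sets had wild-type lowest, and the difference was -0.89 without shared probe sets and -0.40 with the median over them. DENND4A, an exchange factor for RAB10, read 7.09 with wild-type, 8.19 with mutant and 7.50 in control and differed by -1.10 at both probe sets (-0.997 with quantile normalization and -0.90 with the offset, both short of 2-fold). RABGAP1L, a GTPase-activating protein, read 6.13 with wild-type JMJD3, 7.77 with mutant JMJD3 and 7.02 in control, 3.12-fold lower with wild-type than mutant, and went the same way at 213982_s_at, whereas 232702_at read 6.15 in all arrays. Taking its median signal over probe sets gave -0.04. EVI5, which acts on RAB11, read 7.84 with wild-type, 9.17 with mutant and 8.47 in control, 2.51-fold lower with wild-type than mutant. TBC1D15, which acts on RAB7, read 8.70 with wild-type, 9.88 with mutant and 9.43 in control, with -1.08 at its second probe set. TBC1D30 read 6.12 with wild-type, 7.25 with mutant and 6.86 in control, 2.19-fold lower, and -0.81 without shared probe sets.

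**Figure D5:**
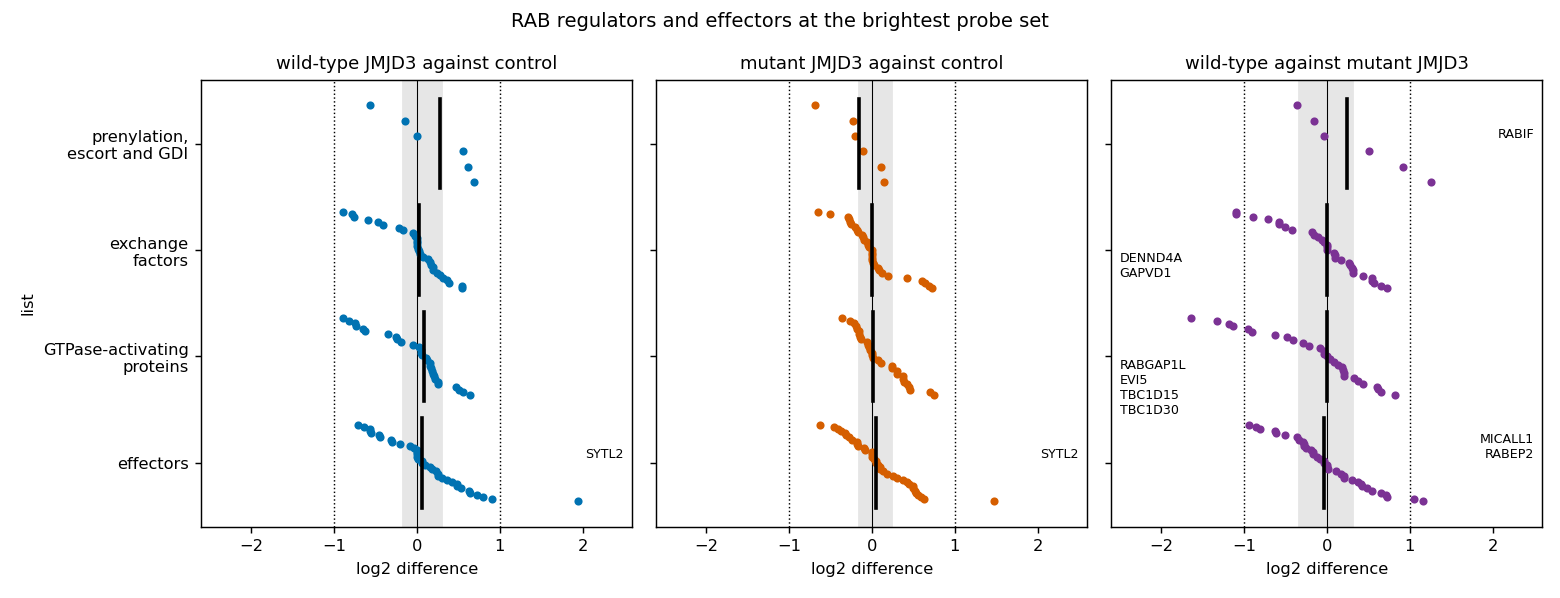
Log2 differences (x axis) of measured RAB regulators and effectors in 4 lists (y axis) for the 3 comparisons, with 1 point per gene, a black bar at each list's median, the grey band spanning the 25th to 75th percentile of all measured genes, dotted lines at 2-fold and names at the panel edges for genes at 2-fold or more. SYTL2 is the only one past 2-fold against control at a brightest probe set.

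By list, the 6 measured prenylation, escort and GDI genes had medians of 0.28 for wild-type JMJD3 over control, -0.155 for mutant JMJD3 over control and 0.24 for wild-type over mutant. RABGGTA, the alpha subunit of the enzyme that prenylates RABs, read 7.18 with wild-type JMJD3, 6.26 with mutant JMJD3 and 6.49 in control, and CHML, an escort protein, read 11.19 with wild-type, 11.55 with mutant and 11.75 in control. GDI2, which extracts RABs from membranes, read 11.09 with wild-type, 11.24 with mutant and 11.09 in control. Medians of exchange factors, GTPase-activating proteins and effectors lay between -0.03 and 0.085 in all 3 comparisons. Among exchange factors DENND4B, with wild-type highest, read 9.65 with wild-type, 8.92 with mutant and 9.10 in control. DENND5B, with control highest, read 9.05 with wild-type, 9.16 with mutant and 9.81 in control, and RAB3IP, which activates RAB8, was highest with mutant (5.66 wild-type, 6.55 mutant and 5.83 control). Of the GTPase-activating proteins, TBC1D9B read 9.58 with wild-type, 8.76 with mutant and 9.02 in control, TBC1D10C read 6.67 with wild-type, 6.06 with mutant and 6.42 in control, and TBC1D16 read 8.50 with wild-type, 8.29 with mutant and 7.86 in control, so that wild-type was highest for each. EEA1, the RAB5 effector that tethers early endosomes, read 8.39 with wild-type JMJD3, 9.02 with mutant JMJD3 and 9.10 in control, and RABEP1, another RAB5 effector, read 8.45 with wild-type, 9.39 with mutant and 8.76 in control.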

How the data were processed

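The deposited log2 signals of 54613 probe sets were used as given. The submitters' processing notes name MAS5, and the sources used here do not give how arrays were normalized to each other. Names came from the platform annotation, in which 41091 had 1 gene symbol, 1801 several (left unnamed) and 11721 were not listed. The identifiers of 41037 matched RefSeq (GRCh38.p14), and 0 symbols were updated. The probe set with the highest mean stood for a gene. Signals under the pooled median (5.48) were set to it, a gene counted as measured if either array compared was over it, and a fold with one side at the floor is a lower bound. Genes were counted at 2-fold. No test was run, as there was 1 array per group, and the number of arrays limits the precision. Members at 2-fold at any measured probe set were given in full, then others by trafficking step, and of the regulators those at 2-fold and the largest differences per list. Members and lists were chosen with earlier results of these data known. The calculation was tested on simulated data. The 7 alternatives concerned scaling, the floor, the choice of probe set and shared probe sets. Calculations ran in Python 3.11.15 (pandas 2.3.3, numpy 2.4.6) and figures in matplotlib 3.10.9.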

Additional observations from a re-analysis of the deposited data

How the results depend on the processing

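No paired analysis was possible because each line has 1 array. Shifting the arrays to one median and quantile normalization left the counts and medians of RAB genes and of their regulators within 1.5 times and 0.1 of the values above, with medians on the log2 scale. With a constant offset instead of a floor, 1 RAB gene in place of 3 was 2-fold higher with mutant JMJD3 than control. Likewise 1 in place of 3 was lower with wild-type than mutant, and 1 regulator in place of 3 was higher with wild-type than mutant. Counts over all genes fell in these comparisons too, from 379 to 202, from 795 to 479 and from 335 to 208. Without shared probe sets, which removes RAB31, 0 RAB genes in place of 1 were 2-fold higher with wild-type JMJD3 than control, where 79 in place of 121 of all genes were. The members' median was then 0.015, beside 0.01 over all genes. With the median over probe sets the members' median was 0.03 for wild-type JMJD3 over control, beside 0.055 over all genes, and 0.0875 for mutant JMJD3 over control, beside 0.00. Without shared probe sets 0 regulators were 2-fold above control with wild-type or mutant JMJD3, 1 was below it with wild-type, and 1 was higher with wild-type than mutant. Over all genes these counts were 79 (121 before), 340 (379 before), 153 (166 before) and 234 (335 before). With the median over probe sets 0 regulators were above control with wild-type or mutant JMJD3, 2 were below it with wild-type, and 1 was higher with wild-type than mutant. Over all genes these counts were 71, 241, 113 and 226. RAB8B turned to 0.15 for wild-type against mutant. With the floor at the 40th percentile 1 regulator was below control with wild-type JMJD3, and with the floor at the 60th percentile 0 were above it with mutant. Over all genes 177 in place of 166 were below, and 304 in place of 379 above. Beyond the choice of probe sets and floor these settings make, the cause was not tested. RAB33B, RAB11B and the dimmer RAB6B probe set 210127_at lie close to the floor, where signal over background limits the differences.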
